A study of Mus musculus with 12 samples.

Results

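Helper T cells given miR-29b and helper T cells whose miR-29 was blocked were compared gene by gene, to ask which transcripts went in opposite directions under gain and loss of the same microRNA. The comparison used all 12 arrays of the series and 14719 genes. Opposing genes were those whose level differed from the control with one sign in all 3 mice given miR-29b and with the other sign in all 3 mice given inhibitors. There were 884 of them, or 6.01% of genes tested. Genes that went the same way in all 6 mice numbered 1026, or 6.97%. Of the rest, 12292 had mixed signs and 517 lacked a usable spot on at least 1 array and were not placed.

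All cells came from C57BL/6 mice aged 7 weeks. They were activated for 65 hours with antibodies to CD3 and CD28, grown with IL-2 for 48 hours, electroporated on days 1 and 4 and lysed on day 5. In the gain arm, DGCR8-deficient cells of 3 mice were given miR-29b or, as control, a control miRNA. In the blockade arm, wild-type cells of 3 other mice were given miR-29 inhibitors, with control inhibitors for comparison. The arms therefore differed in genotype, in the agent and in the kind of control, and these cannot be told apart in the difference between them. The labels do not say how Dgcr8 was removed, nor how many cells took up the oligonucleotides. Mice carry the numbers 2, 3 and 4 within each genotype.

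MicroRNAs are short RNAs that pair through their seed, near the 5′ end, with sites mostly in the 3′ UTRs of messenger RNAs and lower their stability or translation. DGCR8 is the partner of Drosha in the nuclear cut that releases most microRNA precursors, so cells without it have few microRNAs of their own. In T cells miR-29 is known for restraining interferon gamma production, and elsewhere for targeting de novo DNA methyltransferases and collagens. A direct target would be lower with added miR-29b and higher when miR-29 is blocked.

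The mature sequences are shown because all members of the family share the seed, in capitals here, and differ only outside it. They are from RefSeq with GRCm38.p6, written 5′ to 3′.
miR-29a-3p: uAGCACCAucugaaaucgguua
miR-29b-3p: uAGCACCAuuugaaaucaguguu
miR-29c-3p: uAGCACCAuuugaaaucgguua
Counted from 1 at the 5′ end of miR-29b-3p, miR-29c-3p differs from it at A18G, G21U and U22A, and miR-29a-3p at these positions and at U10C. miR-29b-3p has 23 bases and the others have 22. miR-29b is encoded at chr6:31063025-31063047 on the minus strand and again at chr1:195037091-195037113 on the plus strand. Which members the inhibitors blocked is not stated in the labels.

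Levels below are log2 signals on a scale where 0 is the 75th percentile of an array, and effects are log2 differences from the control of the same mouse. The difference between the effects is that of miR-29b minus that of the inhibitors, so it is negative where miR-29b lowered a transcript relative to what the inhibitors did. It is given ± SE from limma with the mouse as a block (n = 3 mice per arm), with an adjusted p over all genes. Of 41174 probes, 27301 to 31416 exceeded background on a given array, 0 spots were saturated, and the number of arrays limits the precision. The miR-29b array of mouse 3 had 1458 spots marked as outliers against 68 to 193 on the others. Dgcr8 read -1.25 to -0.15 on the arrays of deficient cells and -0.16 to 1.005 on those of the wild type, and it is not known whether its probe reads the deleted part. All 18 CD4 T cell markers listed were well above background on every array, and Cd4 itself read -0.38 to 0.17.

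Across the genome the arms did not mirror each other with the processing as reported. Effects of the arms had a Pearson correlation of -0.02 and a Spearman correlation of 0.02 over the 14719 genes. With normexp background correction these were -0.21 and -0.20. They were -0.10 and -0.09 without wild-type mouse 3, and 0.06 and 0.07 without wild-type mouse 2. The correlations are a description only, since genes on the same arrays are not independent. The miR-29b arm was the stronger, with a median absolute effect of 0.26 against 0.09. In limma 3039 genes (20.6%) passed the threshold for miR-29b alone and 0 passed for the inhibitors, where 505 had an unadjusted p below 0.05. Genes higher with inhibitors in all 3 mice numbered 2108, against 1239 lower in all 3. Of genes consistently lower with miR-29b and also consistent in the inhibitor arm, 66.0% were higher with inhibitors, but so were 70.8% of those consistently higher with miR-29b. Of the same-way genes, 724 were higher in both arms (4.92%) and 302 lower in both (2.05%). The median difference of all genes was above 0 in all 6 mice, at 0.0047 to 0.11, and with each pair centred on its median the counts turned to 457 and 585. They were nearly level with quantile normalization (528 and 485) and with the authors' values (544 and 474). Of the opposing genes, 586 were lower with miR-29b and higher with inhibitors (3.98%), the direction of a direct target, and 298 were the reverse (2.02%). This balance turned with normexp (507 against 587) and without wild-type mouse 2 (750 against 864).

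**Figure D1:**
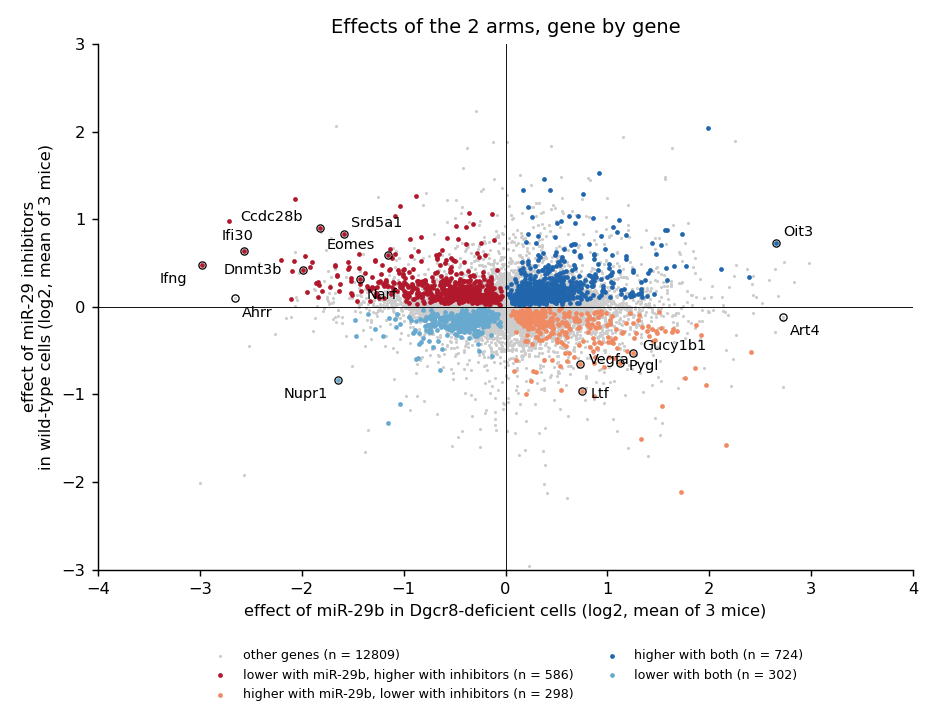
Mean log2 effect of miR-29b in Dgcr8-deficient cells (x axis) against that of miR-29 inhibitors in wild-type cells (y axis), one point per gene, coloured where the sign was the same in all 3 mice of each arm. The 586 genes at upper left are lower with miR-29b and higher with inhibitors, Ifng, Ifi30 and Dnmt3b among them; 1 gene lies outside the axes.

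The balance turned with size. Where every within-mouse difference had to exceed 0.1, opposing genes outnumbered same-way genes by 247 to 198, and beyond 0.2 by 89 to 57. Where the weaker of the mean effects exceeded 0.5, the counts were 61 and 46. With normexp background correction opposing genes were the more numerous, at 1094 against 742, whereas quantile normalization, the authors' values and the other processing tried on all mice kept same-way genes ahead. Opposing genes were also ahead without Dgcr8-deficient mouse 3 (1263 against 1249) and without wild-type mouse 3 (2099 against 1886). No test was made on these classes, since the values that would be tested chose them. The sign rule has no margin: Kat5 came in with a difference of -5.68e-05 in mouse 2 of the miR-29b arm, and Ccdc82 stayed out with -0.000131 in mouse 4 of the inhibitor arm. A further probe of the same gene, which the rule did not use, fell in the same class for 65 of 219 genes lower with miR-29b and higher with inhibitors (29.7%), against 3.87% of all further probes. For the reverse class it did so in 19.2% of 99 genes against 2.17%. Same-way genes recurred at similar rates, in 23.9% of 222 genes higher in both arms and 27.7% of 141 lower in both. Recurrence on a further probe was thus not particular to opposing genes. Further probes were read on the same arrays and are not an independent repeat.

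**Figure D2:**
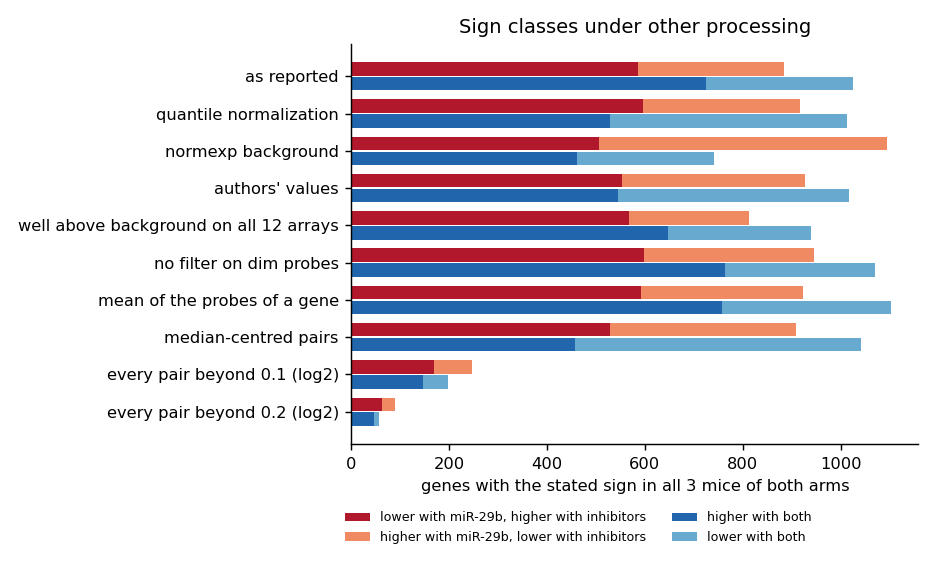
Number of genes in each sign class (x axis) under the processing as reported and 9 alternatives (y axis), with opposing genes in the upper bar and same-way genes in the lower bar of each setting. Opposing genes are ahead with normexp (1094 against 742) and where every pair exceeds 0.1 or 0.2.

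The effects themselves differed for 839 genes (5.7%) in limma with the mouse as a block, 563 of them negative (3.82%) and 276 positive (1.88%), and 3560 genes had an unadjusted p below 0.05. Of these 839, 310 were opposing genes, 39 went the same way and 477 had mixed signs. The miR-29b effect was the larger in 814 and passed by itself in 819, so most of these calls carry a miR-29b effect that passes without the other arm. Without the block 25 genes passed (0.17%), all of them among the 839. Calls named below were lost without the block, except where such an adjusted p below 0.05 is given. Leaving out a mouse gave 34 to 610 calls, except that without wild-type mouse 2 limma called 0 genes, while 2756 had an unadjusted p below 0.05. Mice of both genotypes shared 2 slides and 2 scan days, and 1 of these slides gives the same mice as 1 of the days. The difference of Ifng (-3.45) was -3.79 and -3.06 within the slides and -3.64 and -3.06 within the days, and that of Dnmt3b (-2.41) was -2.39, -2.23, -2.50 and -2.23.

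Ifng, Eomes and Tbx21 were lower with miR-29b past the threshold by itself, and each was higher in all 3 mice given inhibitors, though their inhibitor effects did not pass by themselves. Ifng, the signature cytokine gene of Th1 cells, read 4.59, 3.97 and 2.54 in Dgcr8-deficient controls and 1.105, 1.28 and -0.21 with miR-29b. In wild-type cells it read -2.27, -2.86 and -2.67 in controls and -1.96, -2.54 and -1.87 with inhibitors. Each of the 6 mice moved in the direction of its arm, and levels with and without miR-29b did not overlap, whereas those of the wild-type groups did. The level was 7.86-fold lower with miR-29b and 1.39-fold higher with inhibitors, and the difference was -3.45 ± 0.26 (adjusted p = 0.00732; 0.111 without the block). All 6 wild-type arrays read lower than all 6 arrays of Dgcr8-deficient cells.

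Eomes, a T-box factor that promotes Ifng, read -0.13, 0.46 and 0.02 in Dgcr8-deficient controls and -1.05, -0.99 and -1.05 with miR-29b. In the wild type it read -4.18, -4.68 and -4.60 in controls and -3.85, -4.17 and -3.66 with inhibitors. It was lower in all 3 mice of the former arm and higher in all 3 of the latter, with a difference of -1.74 ± 0.22 (adjusted p = 0.0155; 0.0539 without the block). Eomes had mixed signs with normexp.

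Tbx21, which encodes the Th1 master factor T-bet, had effects of -1.39, -0.65 and -1.01 with miR-29b and of 0.33, 0.23 and 0.06 with inhibitors. Its opposition thus rested on small shifts in the wild type. The difference was -1.23 ± 0.21 (adjusted p = 0.0308; 0.989 without the block). Controls of that gene ranged over 3.83 to 5.06 in the Dgcr8-deficient mice and 2.30 to 3.93 in the wild type. The receptor subunit genes Il12rb2 and Il18rap, through which IL-12 and IL-18 drive Ifng, had miR-29b effects of -1.35 and -1.85, both past the threshold, and showed 0.17 and 0.00 with inhibitors, with mixed signs. Their differences passed in limma (adjusted p = 0.0312 and 0.0105).

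Of 28 genes of the Th1 and interferon gamma list, 10 had a negative difference past the threshold and 0 a positive one, against 3.82% and 1.88% of all genes, but without the block 0 of the 28 passed in limma (7 at an unadjusted p below 0.05). The median difference was -0.65, against 0.06 over all genes. Opposing members numbered 9 and same-way members 0, against 6.01% and 6.97% of all genes. Beside Ifng, Eomes and Tbx21 they included Nkg7, a cytotoxic granule membrane protein, the chemokine receptor gene Cxcr6, the perforin gene Prf1, Runx3 and, in reverse, the lymphotoxin gene Lta. Nkg7 had effects of -1.34 and 0.21, and Cxcr6 of -0.50 and 0.20. Prf1 stood out for its inhibitor arm, with 1.22, 0.42 and 1.103 in wild-type mice and -0.52, -0.43 and -0.21 with miR-29b. Lta had effects of 1.19 and -0.50, and its difference did not pass (adjusted p = 0.0599). The list was compiled with earlier results of these data known.

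**Figure D3:**
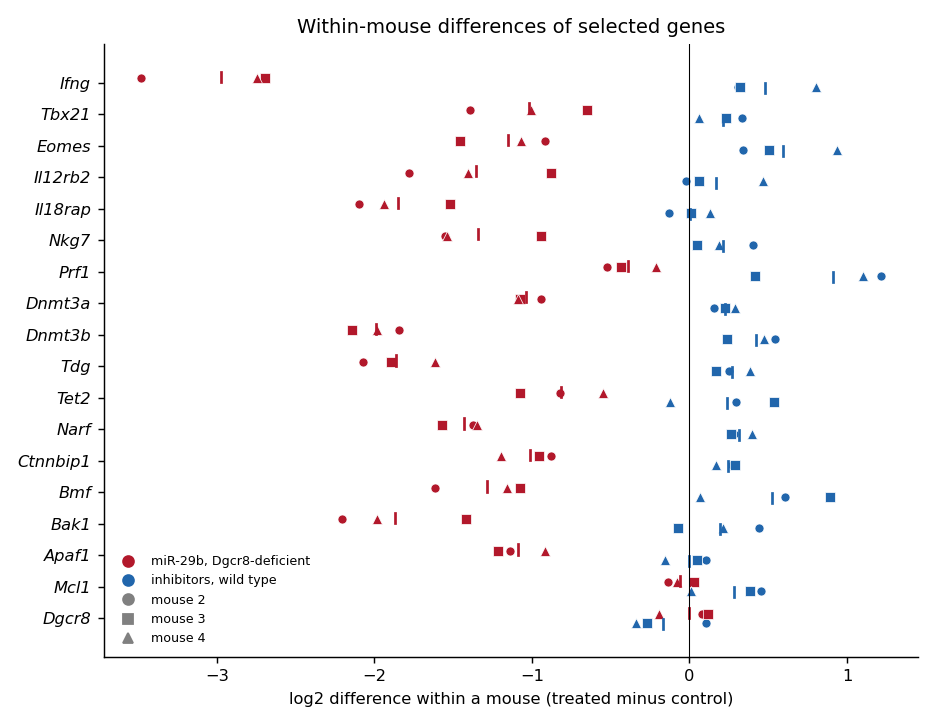
Log2 difference between treated and control cells within each mouse (x axis) for 18 genes (y axis), in red for miR-29b in Dgcr8-deficient cells and in blue for inhibitors in wild-type cells, with a tick at the mean of 3 mice. Ifng, Eomes, Dnmt3b, Narf and Tdg have their red points left of 0 and their blue points right of 0, whereas Il18rap, Apaf1, Mcl1 and Dgcr8 do not separate in this way.

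Cytotoxic markers moved with this group. The summed signal of 9 CD8 T cell markers, in units of the 75th percentile, ranged over 7.08 to 13.6 in Dgcr8-deficient controls, 5.23 to 9.67 with miR-29b, 4.87 to 9.78 in wild-type controls and 7.48 to 13.4 with inhibitors. Treated over control, it was 0.583 to 0.739 in the Dgcr8-deficient mice and 1.37 to 1.54 in the wild-type mice. Without Gzma, which the NK list shares, the ratios were 0.547 to 0.761 and 0.958 to 1.33. For the summed signal of the 18 CD4 T cell markers they were 1.28 to 1.41 and 0.912 to 1.18. The granzyme genes Gzmk, Gzmm and Gzma had differences of -3.30, -1.96 and -1.40, all past the threshold. They were 3 of the 9 CD8 markers, against 3.82% of all genes with a negative difference past it. Gzmk was well above background on 2 of 3 wild-type control arrays, and these 3 read -6.58, -6.31 and -6.84. Over the alternatives its difference ranged from -3.72 to -1.48. Cd8a, which defines CD8 cells, was well above background on all 12 arrays and was higher in all 6 mice, with effects of 0.34 and 0.57. In bulk samples more cells of a type and more RNA per cell cannot be told apart, and the part of CD8 cells in the results above was not tested.

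The summed signal of 9 NK markers, treated over control, was 0.721 to 0.931 in Dgcr8-deficient mice and 1.57 to 2.13 in the wild type. Its range was 1.66 to 9.33 over all groups. Without Gzma it was 1.05 to 1.16 and 0.913 to 1.31. Ncr1, a defining NK gene, was well above background on 0 of 3 arrays with inhibitors. B cell markers had ratios above 1 in all 6 mice (1.02 to 1.72), at 19.6 to 35.0 on the arrays of Dgcr8-deficient cells and 1.54 to 2.65 on those of the wild type. They contributed same-way genes: 4 of 17 were higher in all 6 mice, Ms4a1 and Spib among them, against 4.92% of all genes. Opposing members numbered 0, against 6.01% of all genes, and 1 of the 17 had a negative difference past the threshold, against 3.82%. Their part was not tested.

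Some genes induced by interferons were, like Ifng, lower with miR-29b relative to the inhibitors. Of 40 tested, 9 had a negative difference past the threshold and 0 a positive one, against 3.82% and 1.88% of all genes, and 1 passed without the block. Opposing members numbered 7 and same-way members 3, against 6.01% and 6.97% of all genes. The median difference was -0.55, with medians of -0.65, -0.09 and -0.67 in the 3 mice given miR-29b and of 0.24, -0.0049 and 0.05 with inhibitors. In mouse 3 of the miR-29b arm the list thus lay near the median of all genes (0.01). All 7 opposing members were lower with miR-29b: Ifi30, the oligoadenylate synthetase gene Oas1a, Batf2, the peptide transporter gene Tap1, and the GTPase genes Iigp1, Irgm1 and Gbp6. Oas1a had effects of -1.73 and 0.23, Batf2 of -2.11 and 0.09, Tap1 of -1.11 and 0.28, and Iigp1 of -0.996 and 0.43. Oas1a and Iigp1 left the class with quantile normalization, normexp and the authors' values, Batf2 with normexp and the authors' values, and Tap1 and Gbp6 with the authors' values. Several of these belong to families of close paralogs, and a probe may read more than its own gene. Ifit2 was lower in both arms, at -1.04 and -0.20, and so was Ifi204, while Oas3 was higher in both.

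Ifi30 is a lysosomal thiol reductase of antigen processing. It read 2.73, 2.84 and 3.13 in Dgcr8-deficient controls and 0.29, 0.49 and 0.21 with miR-29b. In the wild type it read 2.22, 2.93 and 2.36 in controls and 3.04, 3.28 and 3.12 with inhibitors. Neither arm overlapped its control. It was 5.94-fold lower and 1.56-fold higher, and its difference of -3.21 ± 0.21 passed with the block (adjusted p = 0.00607) and without it (0.00376).

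Promoters were searched on both strands from 250 bases before to 50 after the start, after the classes were known, for 2 interferon response elements: the GAS motif TTCNNNGAA and the shortened ISRE core GAAANNGAA. GAS stood in 7.38% and the ISRE core in 7.69% of the 11793 promoters found for tested genes. In genes lower with miR-29b and higher with inhibitors the shares were 5.84% and 6.71% of 462, close to those of all genes. The 3 windows shown are of opposing genes with an ISRE core, in capitals, 5′ to 3′ on the strand of the gene, from RefSeq with GRCm38.p6.
Irgm1: cctgtttcaaGAAATAGAAaccgaaactg
Oas1a: cccttctcggGAAATGGAAactgaaaatc
Eomes: taagctaagaGAAAATGAAactcgcaggc
They lie at chr11:48871432-48871460 on the minus strand, chr5:120907527-120907555 on the minus strand and chr9:118478025-118478053 on the plus strand. In Irgm1 and Oas1a a further core overlaps the capitals downstream. A match describes letters and shows no binding. The complement of the miR-29 seed, TGGTGCT, stood in 4.33% of the 462 promoters and in 4.59% of all. Transcript sequences with the 3′ UTRs, where targeting takes place, were not used here.

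Reported targets of miR-29 leaned in the direction of direct targets. Of 50 tested, 13 had a negative difference past the threshold, 1 a positive one and 36 did not pass, against 3.82% and 1.88% of all genes in the 2 directions, and without the block 3 passed. Opposing targets numbered 12 and same-way targets 1, Col15a1, against 6.01% and 6.97% of all genes. The median effect was -0.16 with miR-29b and 0.07 with inhibitors, against 0.07 and 0.02 over all genes. Medians in single mice were -0.12, -0.16 and -0.16 in the miR-29b arm and 0.19, 0.16 and 0.04 in the inhibitor arm. Of the 12 opposing targets, 11 had the sign of a direct target: Dnmt3b, Narf, Tdg, Ifng, Dnmt3a, Ctnnbip1, Eomes, Bmf, Tbx21, Ppm1d and Igf1. This list too was compiled with earlier results known, and Ifng, Eomes and Tbx21 stand in both lists.

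Dnmt3b, a de novo DNA methyltransferase gene, read -1.35, -0.64 and -0.84 in Dgcr8-deficient controls and -3.20, -2.78 and -2.83 with miR-29b. In the wild type it read -1.18, -0.96 and -1.12 in controls and -0.64, -0.72 and -0.64 with inhibitors. Neither arm overlapped its control, and the controls of the genotypes overlapped each other. The difference was -2.41 ± 0.15 (adjusted p = 0.00607; 0.017 without the block), from a 3.98-fold lower and a 1.34-fold higher level. Dnmt3a, its paralog, had effects of -0.94, -1.08 and -1.09 and of 0.16, 0.23 and 0.29, with a difference of -1.26 ± 0.11 (adjusted p = 0.00998; 0.097 without the block). Its further probes gave differences of -2.10 and -0.33, the latter with mixed signs.

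Narf, a nuclear prelamin A recognition factor, was as regular, with -1.37, -1.57 and -1.35 with miR-29b and 0.28, 0.26 and 0.40 with inhibitors. Its difference was -1.75 ± 0.12 (adjusted p = 0.00642; 0.021 without the block), and -1.95 on a further probe. Tdg, the glycosylase that excises oxidised methylcytosine, had effects of -2.07, -1.90 and -1.61 and of 0.25, 0.17 and 0.38. Its difference of -2.13 ± 0.16 passed with the block (adjusted p = 0.00729; 0.231 without it). Within the DNA methylation list, 4 of 18 genes were opposing, Dnmt3a, Dnmt3b, Tdg and the glycosylase gene Smug1, and all 4 differences passed, against 6.01% opposing and 3.82% negative past the threshold among all genes. Smug1 left the class with normexp and with the authors' values. Gadd45b was the only member with a positive difference past the threshold (0.94 ± 0.20, adjusted p = 0.0496), and its signs were mixed with inhibitors. Tet2, which oxidises methylcytosine, missed both the sign rule, by -0.12 in wild-type mouse 4, and the threshold (difference -1.05 ± 0.22, adjusted p = 0.051). A further Tet2 probe was in the opposing class, with effects of -0.62 and 0.24. Over the alternatives the Tet2 difference passed in 7 and did not in 8.

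**Figure D4:**
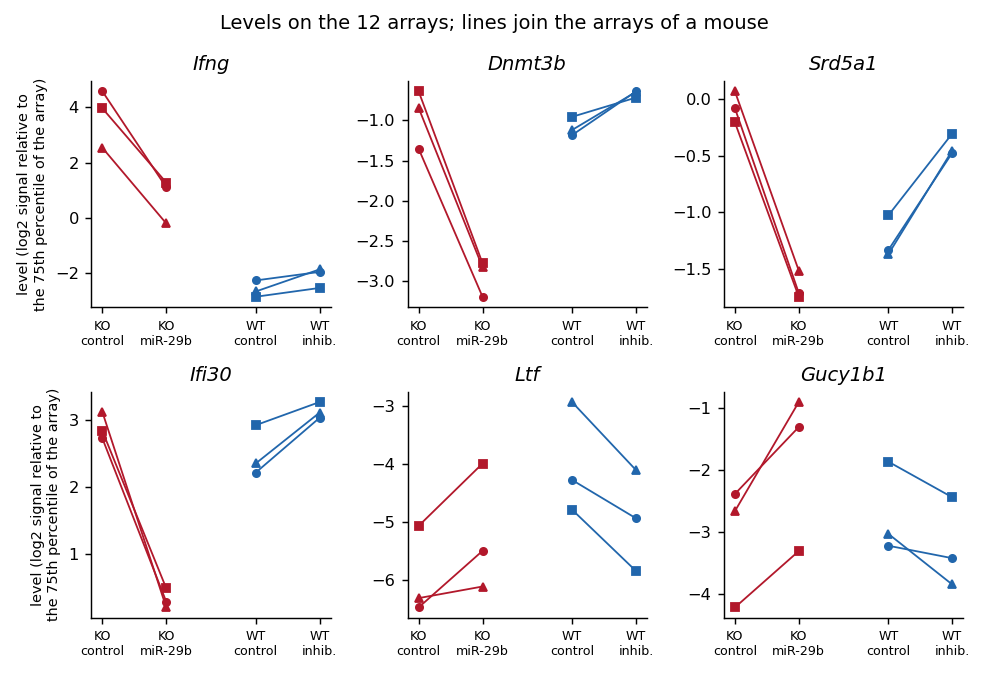
Log2 signal level, with 0 at the 75th percentile of an array (y axis), of 6 genes in the 4 groups (x axis), with lines joining the arrays of a mouse (circle, mouse 2; square, mouse 3; triangle, mouse 4). Ifng, Dnmt3b, Srd5a1 and Ifi30 go down with miR-29b and up with inhibitors in every mouse, and Ltf and Gucy1b1 go the other way.

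Bak1, a pore-forming member of the BCL-2 family, had effects of -2.21, -1.42 and -1.99 with miR-29b but of 0.44, -0.07 and 0.21 with inhibitors. Its difference of -2.06 ± 0.25 passed with the block (adjusted p = 0.0138) and without it (0.021), though a dimmer probe gave -0.19. Apaf1, the scaffold of the apoptosome, fell with miR-29b by 1.09 on the log2 scale and showed 0.00 with inhibitors. Dimmer Apaf1 probes gave differences of -0.50 and -0.43, the former probe being lower in every mouse of both arms. Bmf and Bik, BH3-only genes, were opposing, with effects of -1.28 and 0.52 for Bmf and of -0.49 and 0.15 for Bik, but a further Bmf probe gave a difference of 0.06. These were the 4 of 25 genes of the apoptosis list that passed, all negative, against 3.82% of all genes. Of the 25, 2 were opposing and 2 went the same way, against 6.01% and 6.97% of all genes. The reported targets Bbc3, Hrk and Bcl2l11, which also promote apoptosis, had differences of -0.13, 0.30 and 0.01 that did not pass. Mcl1, Cdk6, Pik3r1 and Stat4, all of them reported targets or Th1 genes, had differences of -0.35, 0.02, -0.29 and -0.52 and none passed (adjusted p between 0.173 and 0.978). A further Mcl1 probe gave -1.21. Fbn1, the fibrillin gene, was not well above background on any wild-type array, so its inhibitor effect has no measured direction.

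In the cell cycle list, 22 of 43 genes were lower with miR-29b in the test of that arm alone, against 1484 of all 14719. Of the differences, 40 of 43 were negative, against 6387 of all genes, with a median of -0.43. Yet 4 passed, Cdc25b, Cdt1, Aurkb and Top2a, against 3.82% of all genes negative past the threshold. Of the 43, 1 was opposing and 3 went the same way, against 6.01% and 6.97% of all genes. The median inhibitor effect was -0.04. Cdc25b, a phosphatase that activates cyclin-dependent kinases, missed the opposing class by -0.02 in wild-type mouse 4, and its further probes were in it. Of 25 cholesterol and fatty acid synthesis genes, 3 had a negative difference past the threshold, against 3.82% of all genes. Hmgcs1 and Dhcr7 were among them. The median difference was -0.35, and 3 of the 25 were opposing against 6.01% of all genes. Ribosomal protein genes had a median difference of 0.20, and 2 of the 49 differences were negative, against 6387 of all 14719. In limma 0 of the 49 passed, against 5.7% of all genes in either direction, and 2 had an unadjusted p below 0.05. In the extracellular matrix list 1 of 26 passed, the nidogen gene Nid2 (effects -0.81 and 0.30), against 5.7% of all genes in either direction. Nid2 went against its list, whose median difference was 0.26, against 0.06 over all genes. Only 8 of the 26 differences were negative. Of the 26, 1 was opposing and 2 went the same way, and 14 were well above background on all 12 arrays. Of 21 genes of other helper lineages 0 passed in limma (5 at an unadjusted p below 0.05), against 5.7% of all genes in either direction. Maf came near, with effects of -0.57 and 0.78 (adjusted p = 0.0543). Of the 21, 2 were opposing and 3 went the same way, against 6.01% and 6.97% of all genes.

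**Figure D5:**
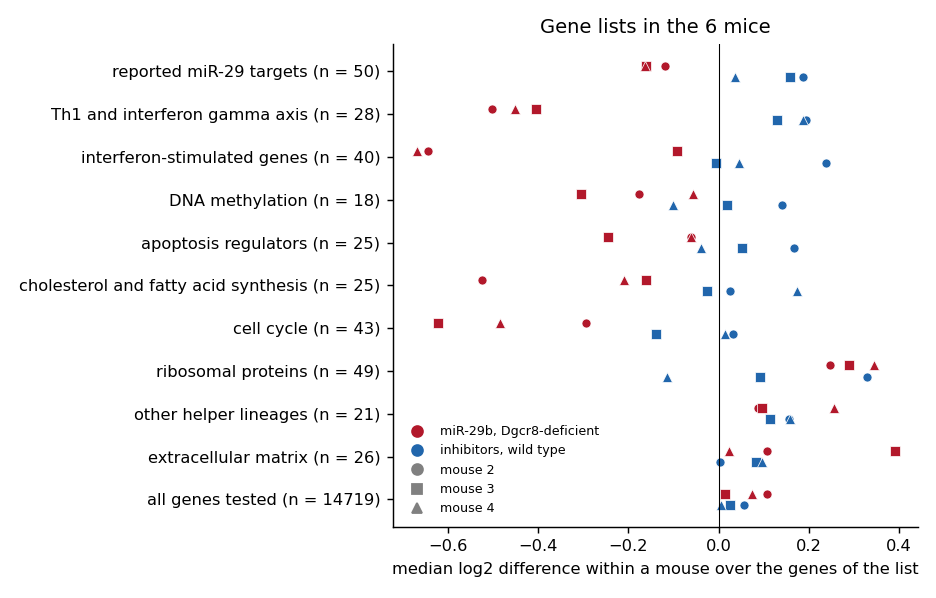
Median log2 difference within each mouse (x axis) over the genes of 10 lists and over all genes tested (y axis), in red for miR-29b in Dgcr8-deficient cells and in blue for inhibitors in wild-type cells. Reported targets and the Th1 list have all red points below 0 and all blue points above it, whereas cell cycle genes have blue points from -0.14 to 0.03.

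Outside the lists, the most regular opposing gene was Srd5a1, which encodes a steroid 5-alpha reductase. It read -0.08, -0.20 and 0.07 in Dgcr8-deficient controls and -1.71, -1.74 and -1.51 with miR-29b. In the wild type it read -1.33, -1.03 and -1.37 in controls and -0.47, -0.30 and -0.45 with inhibitors. The 6 treated arrays did not overlap their controls, and the effects were -1.59 and 0.83. The difference was -2.42 ± 0.12 (adjusted p = 0.00607; 0.00376 without the block).

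Negative differences of similar size were found for Dcakd (-2.74), Ccdc28b (-2.71), Serf1 (-2.60), the matricellular gene Ccn4 (-2.55) and the glycosyltransferase gene Gcnt2 (-2.50), all opposing. A dimmer Gcnt2 probe gave a difference of -0.68 with mixed signs. Dcakd, Ccdc28b and Ccn4 also passed without the block (adjusted p = 0.0256, 0.021 and 0.0318). Ccdc28b had the largest inhibitor effect of these, with 1.098, 1.15 and 0.43. Ahrr, which represses signalling by the aryl hydrocarbon receptor, and Arl4d had differences of -2.75 and -2.69 but mixed signs with inhibitors. Ranked by the weaker effect, the opposing genes on this side also included Nts, Pcyt1b and P3h1, a collagen prolyl hydroxylase gene, with differences of -1.71, -1.50 and -1.69 past the threshold. Asap2, Gm12185, Csf1 and Ido1 had differences of -2.11, -1.80, -1.28 and -2.05 short of the threshold (adjusted p between 0.0515 and 0.106), and the inhibitor effect of Asap2 came mostly from mouse 2 (2.54 against 0.26 and 0.30).

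The reverse class, higher with miR-29b and lower with inhibitors, held 298 genes, although with normexp and without wild-type mouse 2 it was the larger, as given above. Of its members 82.6% were well above background on all 12 arrays, against 96.2% of the 586, and 71 kept their class under all 7 other ways of processing, against 222. Ltf, the lactoferrin gene, read -6.47, -5.07 and -6.31 in Dgcr8-deficient controls and -5.50, -3.99 and -6.11 with miR-29b. In the wild type it read -4.28, -4.79 and -2.93 in controls and -4.94, -5.84 and -4.11 with inhibitors. Levels with and without treatment overlapped in both arms, and the difference was 1.71 ± 0.27 (adjusted p = 0.0274; 0.86 without the block). A further Ltf probe gave 0.67 with mixed signs.

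Gucy1b1, a subunit of soluble guanylate cyclase, had effects of 1.08, 0.91 and 1.76 and of -0.20, -0.57 and -0.82. Its difference was 1.78 ± 0.27 (adjusted p = 0.0244; 0.856 without the block), and 2 further probes were in the same class, at 1.62 and 2.45. Vegfa, the angiogenic growth factor gene and a reported miR-29 target, went against the direction of a direct target, with effects of 0.53, 0.40 and 1.26 and of -0.58, -0.95 and -0.41. Its difference of 1.38 ± 0.27 passed (adjusted p = 0.0416; 0.47 without the block), 3 further probes gave 1.72, 0.64 and -0.47, and it left the class with quantile normalization and with the authors' values. Pygl, the liver glycogen phosphorylase gene, Ephb2, an ephrin receptor gene, and Tox, a nuclear factor of T cell development, had differences of 1.76, 1.45 and 1.15 past the threshold. Mttp, Adgra2 and Alpk3 were opposing with differences of 1.51, 1.36 and 1.28 that did not pass.

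Among the genes named here, most of the largest positive differences were not mirrored. Art4, an ADP-ribosyltransferase gene, had effects of 2.72 and -0.12, Matk of 2.15 and -0.06, Tle2 of 2.14 and 0.02, Prrt2 of 1.86 and -0.24, Tdrp of 2.04 and -0.04 and 6430571L13Rik of 2.65 and -0.29, all with mixed signs in the inhibitor arm. A further Matk probe gave a difference of -0.10. Gpr179, Gpr83 and Ddc were opposing, with effects of 1.69 and -0.28, 1.87 and -0.21, and 1.63 and -0.29. Art4 passed without the block too (adjusted p = 0.0256).

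Same-way genes with the largest weaker effect were Pirb, an inhibitory immunoglobulin-like receptor gene, Oit3, Adcyap1r1, Spib and Ahdc1 on the higher side. Pirb had effects of 0.95, 1.41 and 0.80 and of 0.74, 1.60 and 0.40, and its difference was 0.14 ± 0.34. On the lower side were B3galnt1, Nupr1, Nxt2, Hdac2 and Pik3cg. The stress gene Nupr1 had effects of -2.07, -1.47 and -1.38 and of -0.65, -1.41 and -0.45, with a difference of -0.80 ± 0.31 (adjusted p = 0.186). Of the 10, the difference passed only for Oit3, which was higher by 2.66 with miR-29b and by 0.73 with inhibitors (1.93 ± 0.33, adjusted p = 0.0308). Spib is a B cell marker, and Pirb is known mainly from B and myeloid cells. The summed signal of 15 myeloid markers, treated over control, was 1.21 to 1.38 in Dgcr8-deficient mice and 0.915 to 1.12 in the wild type, and it ranged over 4.85 to 11.1 on the arrays of the former and 13.1 to 21.3 on those of the latter. The part of these cells was not tested.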

How the data were processed

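The authors deposited 12 Agilent one-colour scanner files, whose processed signal is an intensity in arbitrary units, extracted with Agilent Feature Extraction 10.5.1.1 per the file headers. A deposited value table holds log2 values made by the authors, with limma named (no version) per the submitters' processing notes; its normalization is not given in the sources used here. The processed signal was taken to log2, the 75th percentile of each array subtracted, outlier spots removed and spots of a probe averaged. Probes well above background on at least 3 of 12 arrays were kept (32215, of which 21098 were named through unversioned RefSeq accessions), and the brightest kept probe stood for its gene (14719 genes).

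All 12 arrays entered a single limma 3.58.1 fit in R 4.3.3, with the mouse as a block (6 mice, 4 residual degrees of freedom), Benjamini-Hochberg adjustment over all genes and a threshold of 0.05. Per the series design, each Dgcr8-deficient mouse gave cells to both agents; for the wild type the shared number is the basis. Residuals of a mouse's arrays correlated at 0.651, 0.612 and 0.753 in Dgcr8-deficient mice 2, 3 and 4 and at 0.468, 0.722 and 0.429 in the wild type; they also shared slides. The script was tested on simulated data. Alternatives were the fit without the block or with a random block, quantile normalization, normexp (offset 50, on median rather than mean signals, which the files lack), the authors' values, other probe filters, the mean of probes, each mouse left out, and wider sign margins. Median centring of pairs and the promoter motifs were chosen after seeing the data. Members and lists were chosen with earlier results of these data known. Named genes were 20 key genes (Tet1 and Tet3 were not tested), the 10 most negative and most positive differences past the threshold without overlap of arms, up to 10 opposing and 5 same-way genes on each side with the largest weaker effect, and up to 4 members of each list; other list members and probes named here were chosen after their values were seen. Some genes that the rule would name are not reported here.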

Additional observations from a re-analysis of the deposited data

Results flagged for a closer look

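The test of the difference between the effects itself singled out 839 genes. Among those named, negative differences (log2) were found in the Th1 and cytotoxic genes Ifng (-3.45), Gzmk (-3.30), Gzmm (-1.96), Il18rap (-1.86), Eomes (-1.74), Nkg7 (-1.56), Il12rb2 (-1.52), Gzma (-1.40), Prf1 (-1.30), Tbx21 (-1.23) and Cxcr6 (-0.70). Interferon-induced genes in this set were Ifi30 (-3.21), Batf2 (-2.20), Oas1a (-1.95), Iigp1 (-1.42), Tap1 (-1.39), Gbp6 (-1.11), Irgm1 (-0.91) and Ifit2 (-0.84). Genes of DNA methylation and other reported targets were Dnmt3b (-2.41), Tdg (-2.13), Bak1 (-2.06), Bmf (-1.80), Narf (-1.75), Dnmt3a (-1.26), Ctnnbip1 (-1.25), Smug1 (-0.81), and the apoptosis genes Apaf1 (-1.09) and Bik (-0.64).

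Cell cycle, lipid and matrix genes were Hmgcs1 (-1.21), Cdc25b (-1.19), Nid2 (-1.11), Cdt1 (-0.92), Dhcr7 (-0.81), Aurkb (-0.71) and Top2a (-0.70). Genes outside the lists were Ahrr (-2.75), Dcakd (-2.74), Ccdc28b (-2.71), Arl4d (-2.69), Serf1 (-2.60), Ccn4 (-2.55), Gcnt2 (-2.50), Srd5a1 (-2.42), Nts (-1.71), P3h1 (-1.69) and Pcyt1b (-1.50). Positive differences were found in 6430571L13Rik (2.93), Art4 (2.84), Matk (2.22), Tle2 (2.12), Prrt2 (2.10), Tdrp (2.08), Gpr83 (2.08), Gpr179 (1.96), Oit3 (1.93), Ddc (1.92), Gucy1b1 (1.78), Pygl (1.76), Ltf (1.71), Ephb2 (1.45), Vegfa (1.38), Tox (1.15) and Gadd45b (0.94).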

How the results depend on the processing

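The count of differing effects (839) was 25 without the replicate block, 1523 with a random block, 1607 with the authors' values, 1569 for probes above background on all 12 arrays and 407 with no filter, and stayed within 1.5 times otherwise on all mice. Leaving out a mouse gave 0 to 610 calls, 1025 to 2099 opposing genes and 1249 to 2769 same-way genes, the latter counts having fewer signs to meet. Margins of 0.1 and 0.2 left 247 and 89 opposing and 198 and 57 same-way genes. Named opposing genes also left their class with normexp (Bmf, Gcnt2, Gm12185, Ido1, Nid2, P3h1, Gzmk, Gzmm, Runx3, Igf1), with the authors' values (Csf1, Ltf, Runx3, Igf1), with quantile normalization (Bik, Ddc), with the mean of probes (Ccdc28b, Gcnt2) and with median centring (Ppm1d). No named gene past the threshold reversed. Differences near 0 that did (lowest and highest without a mouse in brackets) were those of Adcyap1r1 (-0.0697 with the authors' values, -0.45 with the mean of probes, -0.0561 with quantile normalization [-0.14 to 0.56]), Ahdc1 (0.36 with normexp [-0.28 to 0.42]), B3galnt1 (-0.20, -0.43 and -0.14 with the authors' values, the mean of probes and normexp [-0.40 to 0.60]), Cdk6 (-0.0273, -0.35, -0.0174 and -0.000238 with the authors' values, the mean of probes, median centring and quantile normalization [-0.31 to 0.31]), Nxt2 (-0.13 and -0.0948 with the authors' values and quantile normalization [-0.0486 to 0.26]), Spib (0.16 and 0.46 with the authors' values and normexp), Hdac2 (0.0366) and Igf1 (0.24) with normexp, and Pirb [-0.12 to 0.48]. The cause was not tested. The median difference of reported targets (-0.14) was -0.05 with normexp and -0.28 with quantile normalization. With 3 mice per arm, the number of arrays limits the precision.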
